A study of Mus musculus with 20 samples.

Results

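The miR-181 family was followed in the ventral hippocampus, right side, of 20 male wildtype C57BL/6JOlaHsd mice by small RNA sequencing, with 1 library per mouse. Its members were taken by name, as every row of the deposited miRNA table whose stem was miR-181a, miR-181b, miR-181c or miR-181d, and this gave 7 of 281 miRNAs. They were the 4 guide (5p) arms miR-181a-5p, miR-181b-5p, miR-181c-5p and miR-181d-5p and the 3 passenger (3p) arms miR-181a-1-3p, miR-181a-2-3p and miR-181c-3p. In the study, 10 mice had received cannabidiol (CBD), a non-intoxicating cannabinoid of the hemp plant, at 200 mg/kg/day for 5 days, and 10 had received the vehicle. Both agents were injected into the peritoneum, in a pair of injections a day, and no disease model was used. The comparison asks how CBD affects hippocampal miRNAs in otherwise untreated animals. The labels give neither the ages of the mice nor the make-up of the vehicle.

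A miRNA is cut from a hairpin precursor, and the arm that stays in the Argonaute protein, the guide, pairs with messenger RNAs mainly through its seed, bases 2 to 8. The opposite arm, the passenger, is usually degraded, though some passengers are also loaded. The miR-181 family is known from thymocytes, where miR-181a raises the sensitivity of the T cell receptor, and from brain, where miR-181a has been shown in cultured hippocampal neurons to repress the AMPA receptor subunit GluA2. In glia and after ischaemia, miR-181 guides have been studied as regulators of chaperones and of cell survival.

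The 4 guides are set out here because they share 1 seed and differ only outside it. In the RefSeq miRNA table for GRCm38.p6, 4 of 1679 mature names carry the seed ACAUUCA, and they were these 4, all of them measured. Sequences run 5′ to 3′ with the seed in capitals.
miR-181a-5p: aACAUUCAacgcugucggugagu
miR-181c-5p: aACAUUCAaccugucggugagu
miR-181b-5p: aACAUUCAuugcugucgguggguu
miR-181d-5p: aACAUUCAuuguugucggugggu
Aligned from base 1 at the 5′ end, miR-181c-5p differed from miR-181a-5p by 1 missing base and no substitution. The pair miR-181b-5p and miR-181d-5p differed by 2 edits, the substitution C12U and 1 base at the 3′ end. Across these pairs the distance was larger, with 4 edits between miR-181a-5p and miR-181b-5p, namely A9U, C10U, A21G and 1 added base. In sequence the guides thus fall into an a/c pair and a b/d pair. Reads of such near-identical miRNAs can be split between names by the authors' counting, whose rules for mismatches and multiple matches no source used here states, so each level carries that uncertainty.

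The passengers are shown because they tell the hairpins of miR-181a apart, which the guide cannot. Capitals again mark bases 2 to 8.
miR-181a-1-3p: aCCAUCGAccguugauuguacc
miR-181a-2-3p: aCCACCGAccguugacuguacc
miR-181c-3p: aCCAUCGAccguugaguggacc
Relative to miR-181a-1-3p, miR-181a-2-3p carries U5C and U16C, and miR-181c-3p carries U16G and U19G. The seed was therefore shared by miR-181a-1-3p and miR-181c-3p but not by miR-181a-2-3p.

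The genome arranges the family in another way than the guide sequences do. In GRCm38, Mir181a-1 (chr1:137966455-137966541, plus strand) lies 97 bases from Mir181b-1 (chr1:137966639-137966718). GENCODE M21 places both in an intron of the noncoding gene Gm4258 on the same strand, with overlap of an exon of the lincRNA A430106G13Rik. Mir181a-2 (chr2:38852735-38852810, plus strand) and Mir181b-2 (chr2:38853830-38853918) are 1019 bases apart and opposite an intron of Nr6a1, which encodes an orphan nuclear receptor. The third cluster holds Mir181c (chr8:84178873-84178961, minus strand) and Mir181d (chr8:84178716-84178787), 85 bases apart in an intron of Nanos3, a germ cell RNA-binding protein gene, on the same strand. By position, a is thus paired with b and c with d. The hairpins of miR-181a from chromosomes 1 and 2 release the same guide and different passengers, with the mature arms in capitals.
Mir181a-1: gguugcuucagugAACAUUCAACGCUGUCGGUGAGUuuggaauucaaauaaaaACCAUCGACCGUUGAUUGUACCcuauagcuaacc
Mir181a-2: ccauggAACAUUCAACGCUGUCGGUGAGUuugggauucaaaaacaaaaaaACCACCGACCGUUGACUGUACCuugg

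Deposited values are log2 reads per 1000000 (CPM), and every level below is on that scale unless reads or percentages are named. Library size lay between 242178 and 1245429 reads, and family members held between 53 and 20175 reads in a library. The authors' technical table also lists a run number for each library, 1 to 4. Run 1 held 3 CBD and 2 vehicle libraries, run 2 held 3 of each, run 3 held 2 of each, and run 4 held 2 CBD and 3 vehicle libraries. No source used here states what a run was. In 3 libraries the scaling factor, the effective library over the listed size, was under 0.8, namely CBD replicate 6 (0.714), CBD replicate 8 (0.693) and vehicle replicate 5 (0.788). Levels are reads over the effective library. At equal reads and listed size, a low factor thus gives higher levels by construction. Among marker lists, 5 of 5 neuronal miRNAs were measured, with the neural miR-9-5p at a mean of 16.85 and miR-124-3p at 10.56. Of 3 red blood cell miRNAs 0 were among the 281 rows. In whole tissue, fewer cells of a type and less RNA per cell cannot be told apart.

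The family took 2.53% ± 0.25 of the table's reads in CBD mice and 2.61% ± 0.76 in vehicle mice (SD, n = 10 each). A single library, vehicle replicate 7, held the highest share at 4.40%, and the lowest, 1.95%, was that of vehicle replicate 9. By mean level over the 20 mice, miR-181a-5p stood 17th and miR-181b-5p 20th among the 281 miRNAs, with means of 13.19 and 13.07. The order of these neighbours was not stable, since miR-181b-5p was the higher in CBD mice, with 13.19 ± 0.34 against 13.09 ± 0.36 for miR-181a-5p, and the lower in vehicle mice, with 12.94 ± 0.59 against 13.30 ± 0.49. Next came miR-181d-5p (11.21, 45th) and miR-181a-1-3p (11.08, 51st), which did not differ beyond their spread. At the low end were miR-181c-3p (9.81, 96th), miR-181a-2-3p (9.15, 115th) and miR-181c-5p (8.42, 144th). Each is a level over 20 libraries, and because the members are 22 to 24 bases long, no length scaling was applied.

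Guides made up most of the family's deposited reads. They accounted for 83.5% ± 3.8 of miR-181 reads in CBD mice and 85.9% ± 4.0 in vehicle mice (SD, n = 10 each). No passenger of a miR-181b or miR-181d hairpin was among the deposited miRNAs, so every share here is of the members measured. The share of miR-181a-5p lay between 17.0% and 48.9% with a median of 37.1% in CBD mice, and between 27.5% and 61.3% with a median of 39.8% in vehicle mice. For miR-181b-5p the share was 25.5% to 44.1% with a median of 35.8% in CBD mice, and 21.5% to 53.7% with a median of 33.4% in vehicle mice. Which guide led therefore varied from mouse to mouse, and the groups overlapped. The rarest member on average was miR-181c-5p, with 1.37% ± 0.50 of family reads in CBD mice and 1.61% ± 0.71 in vehicle mice.

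**Figure D1:**
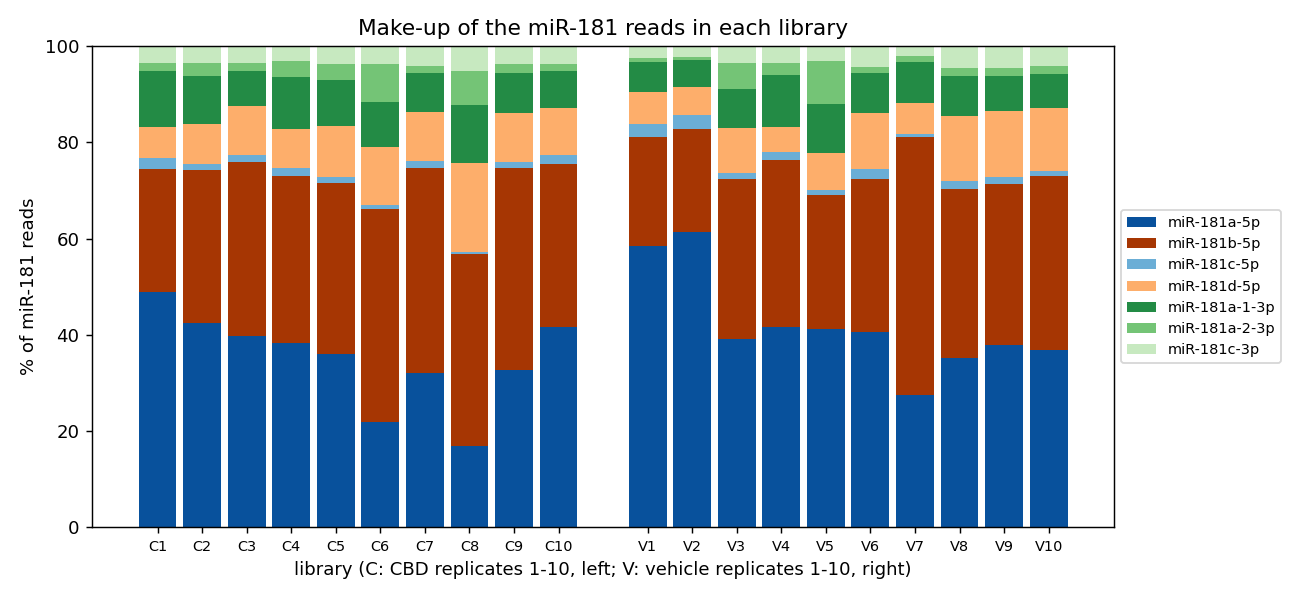
Share of miR-181 reads (%, vertical axis) taken by each of the 7 members in each library, with CBD replicates 1 to 10 on the left and vehicle replicates 1 to 10 on the right. Blue and orange segments are the guides and green segments the passengers. The miR-181a-5p segment ranges from 17.0% in CBD replicate 8 to 61.3% in vehicle replicate 2.

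Under CBD, miR-181a-5p and miR-181c-5p were lower and the other 5 members higher on average, and none of these differences passed the test. With limma and Benjamini-Hochberg adjustment over all 281 miRNAs, 0 of 7 members and 0 of 281 miRNAs (0%) had an adjusted p under 0.05. At an unadjusted p under 0.05 there were 0 of 7 members, against 22 of 281 miRNAs (7.83%). An exact Wilcoxon test and an exact permutation within runs each called 0 of 281 as well, with 21 and 41 miRNAs at an unadjusted p under 0.05. The median difference of the 7 members, CBD minus vehicle, was 0.25, against -0.08 over all 281 miRNAs, of which 38.4% had a positive difference (51.2% after centring each library on its median miRNA).

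The guides of the a/c pair are given first. miR-181a-5p was at 12.35 at the lowest, 13.11 at the median and 13.56 at the highest in CBD mice, and at 12.72, 13.29 and 14.16 in vehicle mice. Run 1 held the highest values of both groups, and CBD replicate 8 the lowest. The groups overlapped, and the difference was -0.21 ± 0.20 (SE; limma, p = 0.294, adjusted p = 0.817), with 7 of 10 CBD mice below the vehicle mean. With run as a further term the difference was -0.29 ± 0.15 (adjusted p = 0.361). Within runs 1 to 4 it was -0.59, -0.30, -0.77 and 0.42, so that run 4 went the other way. The difference was -0.11 without vehicle replicate 2, -0.13 without CBD replicate 8 and -0.065 without the 3 low-scaling libraries. An interaction of treatment and run was not called for any of 281 miRNAs at an adjusted p under 0.05, with 14 at an unadjusted p under 0.05, of which miR-181a-5p was 1 (p = 0.0182, adjusted p = 0.732).

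miR-181c-5p, the scarce guide of the Nanos3 cluster, ranged from 6.996 through a median of 8.42 to 9.11 in CBD mice and from 7.82 through 8.21 to 9.75 in vehicle mice. Its spread was wide, and the lowest and highest values again came from CBD replicate 8 and from run 1. The mean difference of -0.15 ± 0.27 (SE; limma, adjusted p = 0.915) was smaller than the spread between mice. It turned to 0.0040 without CBD replicate 8 and to 0.015 without the 3 libraries of low scaling factor. Runs 1 to 4 gave differences of -0.88, -0.00, -0.73 and 0.55.

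Of the b/d pair, miR-181b-5p lay at 12.62, 13.15 and 13.75 (lowest, median, highest) in CBD mice and at 12.55, 12.77 and 14.56 in vehicle mice. The vehicle maximum was vehicle replicate 7, and the next vehicle mouse was at 13.06. In 9 of 10 CBD mice the level exceeded the vehicle mean, but with that library in the group the difference was 0.25 ± 0.21 (SE; limma, adjusted p = 0.811). Without vehicle replicate 7 it was 0.43 with an adjusted p of 0.269, without the 3 low-scaling libraries 0.12, and without run 4 0.13. Within runs 1 to 4 the difference was 0.34, 0.34, -0.26 and 0.52.

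miR-181d-5p had 10.65, 11.25 and 12.47 in CBD mice and 10.35, 11.14 and 11.50 in vehicle mice (lowest, median, highest). Its highest values, 12.47 and 11.89, were those of CBD replicates 8 and 6, both libraries of low scaling factor. The difference of 0.27 ± 0.20 (SE; limma, adjusted p = 0.715) became 0.050 without the 3 low-scaling libraries. By run it was 0.26, 0.57, 0.42 and -0.03.

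The passengers were all higher on average under CBD. miR-181a-1-3p, from chromosome 1, lay at 10.86, 11.19 and 11.86 in CBD mice and at 10.34, 10.75 and 11.90 in vehicle mice (lowest, median, highest). The ranges nearly coincided at the top, while 8 of 10 CBD mice were above the vehicle mean. Its difference was 0.32 ± 0.19 (SE; limma, adjusted p = 0.619). Under array weights, which give libraries that stand apart less say, it was 0.49 with an adjusted p of 0.0440, and with the run term added to those weights 0.36 with an adjusted p of 0.138.

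miR-181a-2-3p, the passenger of the chromosome 2 hairpin, was the most variable member. It lay at 8.28, 9.18 and 11.29 in CBD mice and at 7.70, 8.26 and 11.18 in vehicle mice (lowest, median, highest). The 3 highest values, all above 11, were those of the libraries with a scaling factor under 0.8, of which 2 were CBD and 1 vehicle. The difference of 0.59 ± 0.43 (SE; limma, adjusted p = 0.712) was 0.41 without these libraries. Within runs it was 1.15, -0.05, 1.19 and 0.32.

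miR-181c-3p, the passenger of the Nanos3 cluster, had 9.58, 9.86 and 10.67 in CBD mice and 9.32, 9.69 and 10.06 in vehicle mice (lowest, median, highest). The groups overlapped between 9.58 and 10.06. It was the 1 member whose difference had the same sign in all 4 runs, with 0.45, 0.11, 0.34 and 0.18. The limma difference was 0.24 ± 0.15 (SE; adjusted p = 0.619), and with the run term 0.26 ± 0.13 (SE; adjusted p = 0.361). Permuting treatment within runs over all 12000 relabellings gave an exact p of 0.00875 and an adjusted p of 0.217. The value was 0.12 without the 3 low-scaling libraries.

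**Figure D2:**
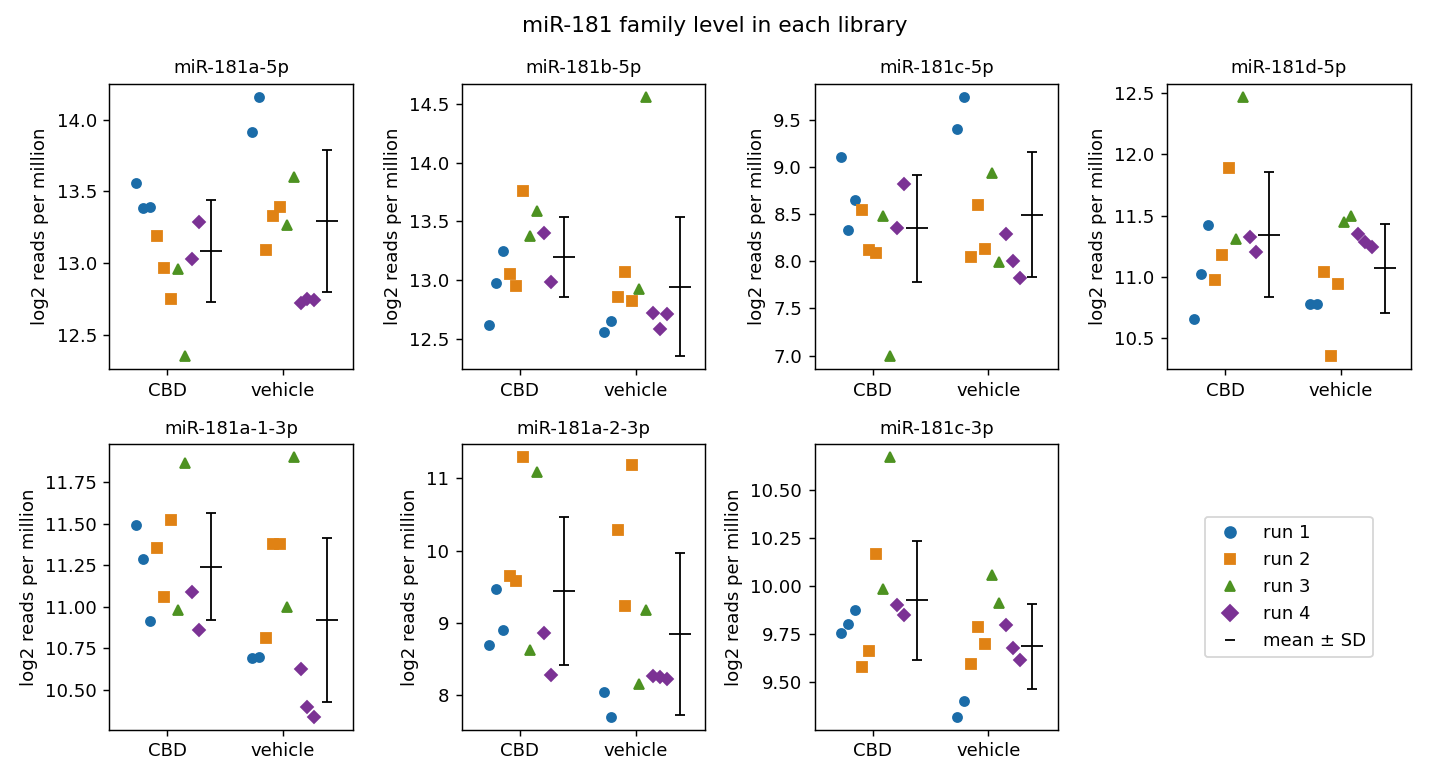
Level of each member (log2 reads per 1000000, vertical axis, a separate scale per panel) in every library, CBD mice left and vehicle mice right, with colour and symbol for the run and a bar for mean ± SD (n = 10 each). The groups overlap in every panel, as for miR-181b-5p, where vehicle replicate 7 at 14.56 exceeds the CBD maximum of 13.75.

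Adding run to the model moved the unadjusted background to 42 of 281 miRNAs (14.9%), while 0 of 7 members had an unadjusted p under 0.05. Members' run-adjusted p lay between 0.361 and 0.674 in limma. In the authors' deposited table the log2 fold changes had the same signs as those above, from -0.29 for miR-181a-5p to 0.63 for miR-181a-2-3p. At an unadjusted p under 0.05 the authors' deposited table has 5 of 7 members, against 66 of its 281 miRNAs (23.5%). The limma fits with treatment only and with treatment and run, both without array weights, have 0 of 7. The permutation within runs had miR-181c-3p under that threshold (exact p = 0.00875). In the authors' deposited table these 5 were miR-181a-5p (p = 0.0479), miR-181d-5p (p = 0.0417), miR-181a-1-3p (p = 0.0489), miR-181a-2-3p (p = 0.0425) and miR-181c-3p (p = 0.0441), and the others were miR-181b-5p (p = 0.135) and miR-181c-5p (p = 0.187). No adjusted p in the authors' deposited table was under 0.05, and those of the 7 members lay between 0.210 and 0.448.

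**Figure D3:**
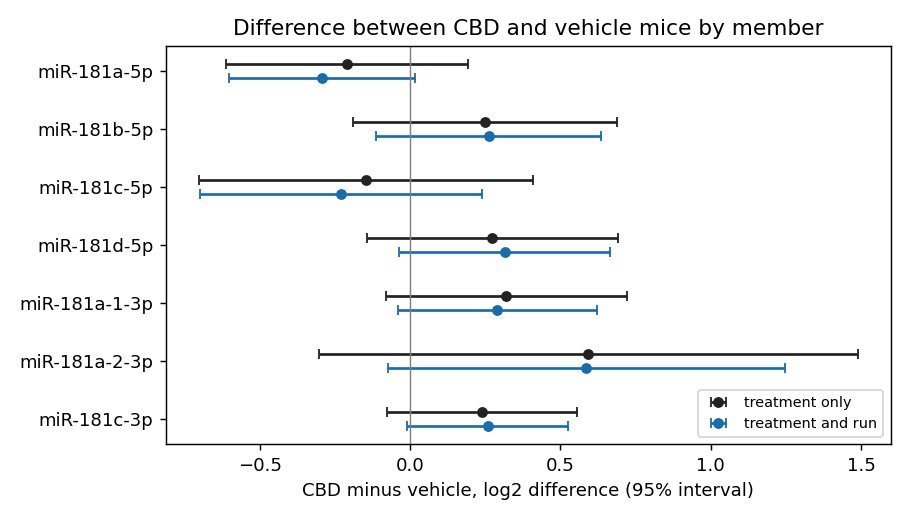
Difference between CBD and vehicle mice (log2, horizontal axis) for each member, as the limma estimate with its 95% interval, from the fit with treatment only (black) and with treatment and run (blue). Every interval includes 0, and the widest is that of miR-181a-2-3p, -0.30 to 1.49 with treatment only.

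Between runs, some members passed the test. In limma's F test of run, with treatment kept in the model, 3 of 7 members had an adjusted p under 0.05, against 135 of 281 miRNAs (48.0%), a share close to that background. Mean levels of miR-181a-5p in runs 1 to 4 were 13.68, 13.12, 13.04 and 12.91 (adjusted p = 0.0181). Those of miR-181a-2-3p were 8.56, 10.20, 9.26 and 8.38 (adjusted p = 0.00900), and those of miR-181a-1-3p 11.02, 11.25, 11.44 and 10.66 (adjusted p = 0.0473). Guide and passengers of the same hairpins thus had different profiles over the runs, with the guide highest in run 1 and the passengers in runs 2 and 3. The other 4 members had an adjusted p between 0.0516 and 0.0937, and the count of called members depended on single libraries. It was 1 without vehicle replicate 2 (98 of 281 miRNAs), 6 without CBD replicate 3 (159 of 281), 6 without CBD replicate 7 (140 of 281) and 5 without vehicle replicate 6 (127 of 281). Median scaling factors of the runs were 1.085, 0.972, 1.023 and 1.079, and their part in the run differences was not tested.

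The ratio of the arms of 1 hairpin does not depend on library scaling. As log2 differences of 5p minus 3p, 76 such pairs could be formed in the table, 3 of them from the family. For miR-181a-5p over miR-181a-1-3p the difference was 0.49, 1.96 and 2.47 in CBD mice and 1.70, 2.27 and 3.46 in vehicle mice (lowest, median, highest). The guide exceeded this passenger in all 20 libraries, with means of 1.84 ± 0.59 in CBD mice and 2.37 ± 0.55 in vehicle mice (SD, n = 10 each). The means differed by -0.53 ± 0.28 (SE; limma, p = 0.0713, adjusted p = 0.677 over 76 pairs), with 8 of 10 CBD mice below the vehicle mean. Within runs 1 to 4 the difference was -1.13, -0.42, -0.75 and -0.10, and over all runs it was -0.32 without the 3 low-scaling libraries.

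For miR-181a-5p over miR-181a-2-3p the means were 3.64 ± 1.31 in CBD mice and 4.45 ± 1.26 in vehicle mice (SD, n = 10 each). CBD mice spanned 1.27 to 5.00 and vehicle mice 2.21 to 6.46, so that the ranges overlapped from 2.21 to 5.00. The difference was -0.80 ± 0.50 (SE; limma, adjusted p = 0.713), -0.54 without CBD replicate 8. Within runs 1 to 4 it was -1.74, -0.25, -1.96 and 0.10. Because 1 guide sequence comes from both hairpins, neither ratio measures the arms of a single hairpin.

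The pair from Mir181c is the exception among the 3. Here the 5p arm was below the 3p arm, at -1.58 ± 0.83 in CBD mice and -1.19 ± 0.78 in vehicle mice (SD, n = 10 each). The arm named passenger was the more abundant in all 10 CBD libraries and in 8 of 10 vehicle libraries, the others being vehicle replicates 1 and 2 of run 1, at 0.085 and 0.35. Treatment groups differed by -0.39 ± 0.34 (SE; limma, adjusted p = 0.773), and by -0.15 without CBD replicate 8. Within runs 1 to 4 they differed by -1.33, -0.11, -1.07 and 0.37.

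Over all pairs, 0 of 3 family pairs had an unadjusted p under 0.05 for treatment in limma, against 3 of 76 pairs (3.95%), and 0 of 76 had an adjusted p under 0.05. With the run term, both pairs of miR-181a-5p had an unadjusted p under 0.05, with -0.58 ± 0.23 and -0.88 ± 0.37 (SE; adjusted p = 0.347 for each), against 7 of 76 pairs (9.21%). These pairs share the miR-181a-5p values, and their passengers correlated at r = 0.65, so they are not separate results. Between runs, all 3 family pairs had an adjusted p under 0.05, against 34 of 76 pairs (44.7%). Without the treatment term in the F test, 2 of the 3 family pairs did. For miR-181a-5p over miR-181a-1-3p the means in runs 1 to 4 were 2.66, 1.87, 1.61 and 2.24 (limma, adjusted p = 0.0317). The mean of miR-181a-5p over miR-181a-2-3p was 5.12, 2.92, 3.78 and 4.53 in runs 1 to 4 (limma, adjusted p = 0.00573). For miR-181c-5p over miR-181c-3p it was -0.58, -1.49, -2.05 and -1.51 (adjusted p = 0.0192).

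**Figure D4:**
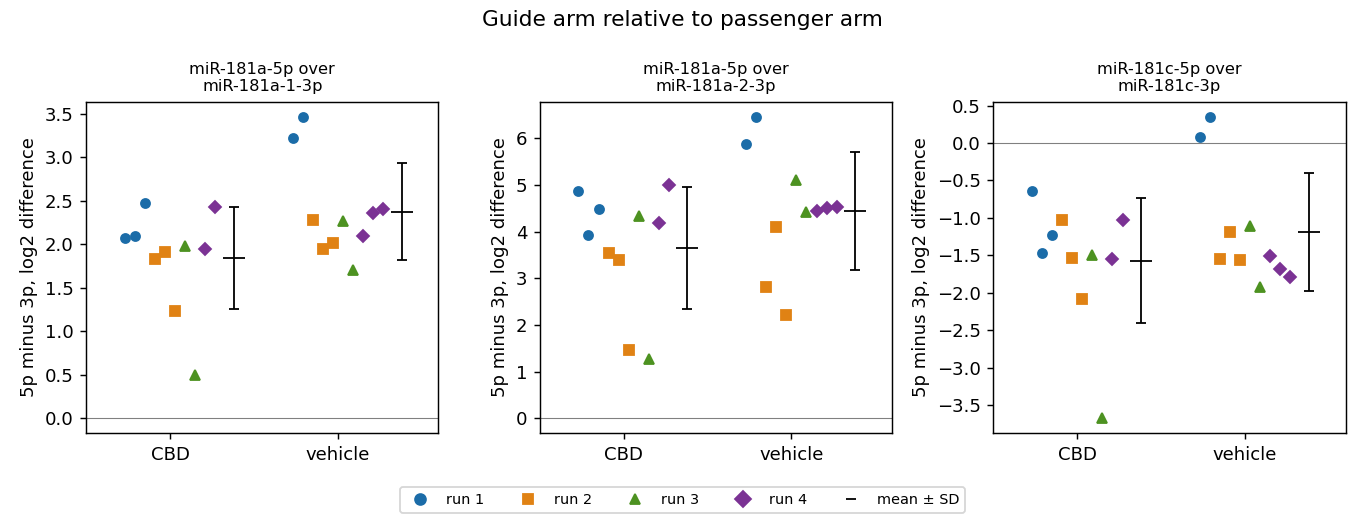
Guide arm minus passenger arm (log2 difference, vertical axis, a separate scale per panel) in every library, CBD mice left and vehicle mice right, with colour and symbol for the run and a bar for mean ± SD (n = 10 each). Both miR-181a panels lie above 0 throughout, while miR-181c-5p lies below miR-181c-3p except in vehicle replicates 1 and 2.

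Across the 20 mice, guides of the same sequence class correlated positively and guides of the same cluster did not. Over 21 pairs of members, 12 correlations had an adjusted p under 0.05 by permutation. The guides miR-181a-5p and miR-181c-5p, from different chromosomes, had r = 0.82 (adjusted permutation p = 0.00063) and rho = 0.64 (adjusted permutation p = 0.0144). Without the 2 mice farthest from the median of miR-181a-5p r was 0.66, and with run means removed it was 0.74 (adjusted p = 0.0230 by permutation within runs). Of the 280 other miRNAs, only 1 had a higher r with miR-181a-5p than miR-181c-5p had.

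The other sequence pair, miR-181b-5p and miR-181d-5p, had r = 0.55 and rho = 0.58 (adjusted permutation p = 0.0335 and 0.0283). That relation did not pass within runs, with r = 0.38 (adjusted permutation p = 0.288), and r was 0.57 without the 2 farthest mice. Cluster mates behaved otherwise. For miR-181c-5p and miR-181d-5p, whose hairpins are 85 bases apart, r was -0.66 and rho -0.50 (adjusted permutation p = 0.00822 and 0.0522). It was -0.64 with run means removed (adjusted permutation p = 0.0230), -0.42 without the 2 farthest mice and -0.48 without the 3 low-scaling libraries. For miR-181a-5p and miR-181b-5p, which share both of their clusters, r was -0.16 and rho -0.22 (adjusted permutation p = 0.510 and 0.471), and within runs r was 0.02 (adjusted permutation p = 0.967).

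These correlations are set beside the sequences above because both positively correlated guide pairs differ by 1 or 2 edits. With passengers included, sequence mates were not always the closest members. Over the 20 mice miR-181b-5p had a higher r with miR-181a-1-3p (0.69) and miR-181c-3p (0.59) than with miR-181d-5p (0.55). For miR-181d-5p the r with miR-181c-3p, its cluster neighbour, was 0.81. Whether reads of 1 member were counted under the name of another was not tested. The log2 distances between the guides come from the same values as these correlations, so they describe them again and are not separate support. miR-181a-5p exceeded miR-181c-5p by 4.73 ± 0.29 in CBD mice and 4.80 ± 0.41 in vehicle mice, and miR-181b-5p exceeded miR-181d-5p by 1.85 ± 0.28 in CBD mice and 1.87 ± 0.58 in vehicle mice (SD, n = 10 each). Of the distances across the classes only those between cluster mates were taken, and they were looser. miR-181d-5p exceeded miR-181c-5p by 2.99 ± 1.04 in CBD mice and 2.57 ± 0.89 in vehicle mice, and miR-181b-5p minus miR-181a-5p was 0.11 ± 0.66 in CBD mice and -0.35 ± 0.70 in vehicle mice. That last distance, chosen after its values were seen and so given without a test, was larger in CBD mice in each of runs 1 to 4, by 0.94, 0.64, 0.51 and 0.11.

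No guide had a relation with its own passenger that passed the test in every form. Between miR-181a-5p and miR-181a-1-3p r was -0.01, and between miR-181a-5p and miR-181a-2-3p it was -0.39 (rho 0.15 and -0.20; adjusted permutation p for r = 0.968 and 0.115). Without the 2 farthest mice these were 0.42 and -0.08, so that the sign of the first is not settled. For miR-181c-5p and miR-181c-3p it was -0.60 (adjusted permutation p = 0.0151), with rho -0.22 (adjusted permutation p = 0.471). This last relation rested on few mice, since r was -0.15 without the 2 farthest. The passenger of Mir181c correlated with several members. With miR-181d-5p, its neighbour on chromosome 8, miR-181c-3p had r = 0.81 and rho = 0.76 (adjusted permutation p = 0.00063 and 0.00378). That held with run means removed, at r = 0.71 (adjusted permutation p = 0.0291), and was 0.79 without the 2 farthest mice and 0.53 without the 3 low-scaling libraries. With miR-181b-5p, from other chromosomes, it had r = 0.59 and rho = 0.74 (adjusted permutation p = 0.0253 and 0.00378), with 0.76 without the 2 farthest mice and 0.35 with run means removed (adjusted permutation p = 0.339). With miR-181a-1-3p it had r = 0.58 and rho = 0.51 (adjusted permutation p = 0.0151 and 0.0522), with 0.41 without the 2 farthest mice and 0.59 with run means removed (adjusted permutation p = 0.0300). Members that are not neighbours thus shared the relation. miR-181a-1-3p in turn correlated with miR-181b-5p, its neighbour on chromosome 1, at r = 0.69 and rho = 0.64 (adjusted permutation p = 0.00287 and 0.0144; r = 0.64 with run means removed, adjusted permutation p = 0.0235, and 0.55 without the 2 farthest mice).

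**Figure D5:**
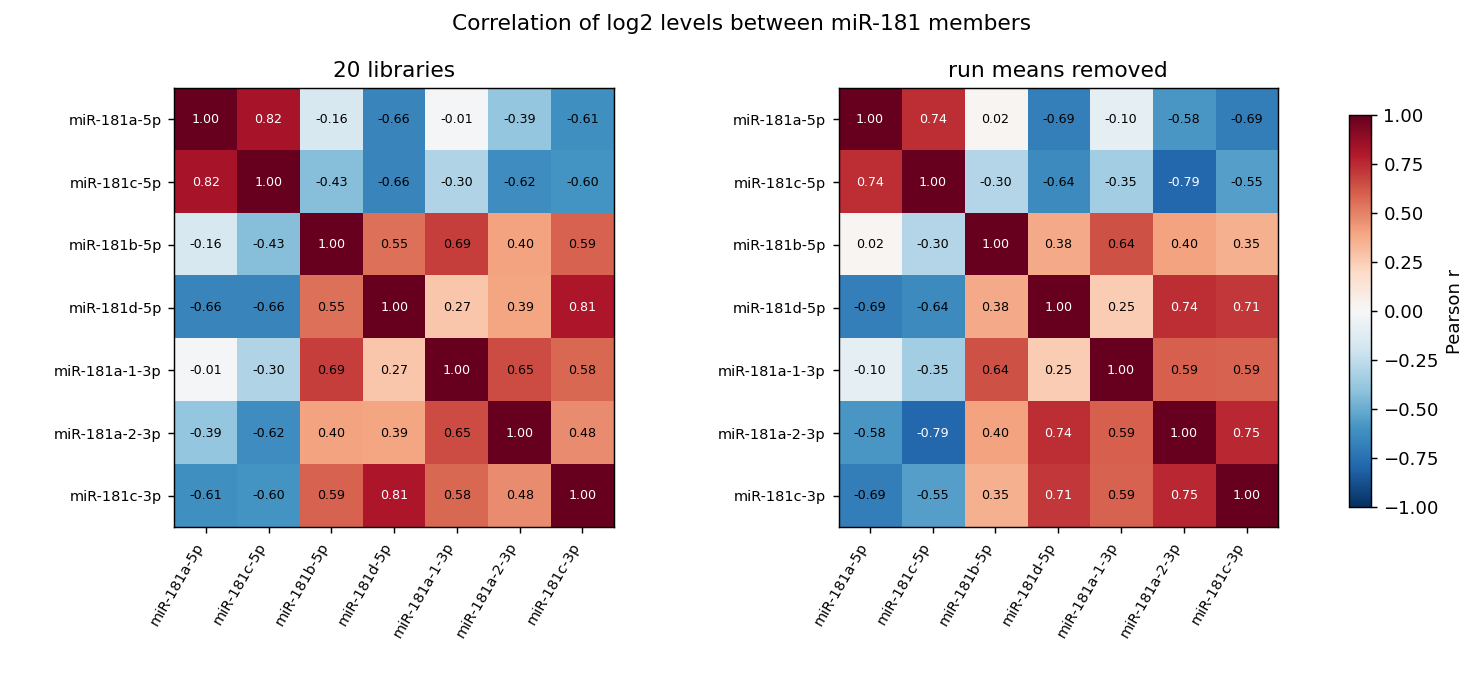
Pearson r (colour scale from -1 to 1, value in each cell) between the log2 levels of every pair of members, over the 20 libraries on the left and with run means removed on the right. The a/c guides form a positive block (0.82 and 0.74), and miR-181d-5p is negative with both (-0.66 with each over the 20 libraries).

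The scaling factor of a library went with several members. Because the effective library enters both the factor and every level, a negative relation is partly arithmetic, and the p-values below do not separate that part. Among 21 relations of the 7 members with 3 library measures, miR-181a-2-3p had the strongest, with the scaling factor at r = -0.91 and rho = -0.85 (adjusted permutation p = 0.00021 and 0.00042). Its unadjusted p for r, 1e-05, is the smallest that 100000 permutations can give. It was -0.89 with run means removed (adjusted permutation p = 0.00966) and -0.85 without the 2 farthest mice. For miR-181c-5p the same measure gave r = 0.64 and rho = 0.57 (adjusted permutation p = 0.0156 and 0.0371), with r = 0.47 without the 2 farthest mice and 0.64 with run means removed (adjusted permutation p = 0.0507). miR-181d-5p had r = -0.59 and rho = -0.31 with it (adjusted permutation p = 0.0222 and 0.320), with -0.79 within runs (adjusted permutation p = 0.0333), and r was -0.0059 without the 2 farthest mice, so the pooled relation rested on those mice. For miR-181a-1-3p r was -0.58 and rho -0.60 (adjusted permutation p = 0.0222 and 0.0362), with -0.47 within runs (0.231). For miR-181c-3p they were -0.60 and -0.32 (adjusted permutation p = 0.0222 and 0.310), with r of -0.71 within runs (0.0522) and -0.038 without the 2 farthest mice. For miR-181b-5p they were -0.50 and -0.65 (adjusted permutation p = 0.0669 and 0.0169), and for miR-181a-5p 0.41 and 0.18 (0.141 and 0.613). The share of reads taken by miR-434-3p, the most abundant miRNA of most libraries, went with both miR-181a passengers. For miR-181a-1-3p r was 0.66 and rho 0.66 (adjusted permutation p = 0.0125 and 0.0169), with r = 0.59 within runs (adjusted permutation p = 0.0507) and 0.60 without the 2 farthest mice. For miR-181a-2-3p the share gave r = 0.72 and rho = 0.57 (adjusted permutation p = 0.0042 and 0.0371), with r = 0.58 within runs (adjusted permutation p = 0.141) and 0.54 without the 2 farthest mice. Library size, the remaining measure, gave r = -0.58 and rho = -0.49 with miR-181a-2-3p (adjusted permutation p = 0.0222 and 0.0856). That r was -0.58 without the 2 farthest mice and -0.37 within runs (adjusted permutation p = 0.231). For the other members r with library size had an adjusted permutation p between 0.139 and 0.962. The part of these measures in the members' treatment differences and correlations was not tested.

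Outside the family, the patterns most like each guide were ranked by Pearson r over the 20 libraries, as a description. For miR-181a-5p they were miR-338-5p (0.86), miR-874-3p (0.78) and let-7i-3p (0.74), and miR-338-5p, from an oligodendrocyte-enriched hairpin, also led with run means removed (0.83), followed by miR-376c-3p and miR-330-3p. For miR-181c-5p they were miR-148b-3p (0.83), miR-425-5p (0.82) and miR-874-3p (0.82), and with run means removed miR-425-5p, miR-22-5p and miR-330-5p. For miR-181b-5p they were miR-27b-5p (0.79), miR-210-3p (0.72) and miR-219a-2-3p (0.69), and with run means removed miR-320-5p (0.82), miR-6240 and miR-1961. By rank the likeness to miR-210-3p and miR-219a-2-3p was weaker, with rho of 0.46 and 0.36, against 0.78 for miR-27b-5p. For miR-181d-5p they were miR-1843b-5p (0.83), miR-1843a-5p (0.81) and let-7i-5p (0.79), and with run means removed miR-1843b-5p, let-7c-5p and let-7i-5p. The shared miR-874-3p is the 1 name on both the a and the c list over the 20 libraries, while the lists of b and d had none in common.

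Other miRNAs of synapses and immune cells, listed by name, gave no called difference either. Of 12 synaptic and dendritic miRNAs 10 were measured, 4 with a positive and 6 with a negative difference, with a median of -0.14. The first of them, miR-132-3p, an activity-induced regulator of dendrites, differed by 0.37 (limma, unadjusted p = 0.159). Of 8 immune miRNAs 4 were measured and all 4 had a negative difference, with a median of -0.12, led by miR-146a-5p, a brake on Toll-like receptor signalling, at -0.45 (unadjusted p = 0.206). Both medians compare with -0.08 over the 281 miRNAs.

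The levels of markers of other cell types are given beside the family's values. All 4 of 4 oligodendrocyte miRNAs were lower in CBD mice, with a median difference of -0.55. Their summed level ranged from 9.81 to 11.67 in CBD mice and from 9.99 to 12.63 in vehicle mice, and miR-338-3p differed by -0.62 (limma, unadjusted p = 0.0251). All 4 of 4 blood vessel miRNAs were lower as well, with a median of -0.53 and miR-143-3p at -0.015. Their summed level ranged from 11.62 to 12.48 in CBD mice and from 11.71 to 13.12 in vehicle mice, and the endothelial miR-126a-3p and miR-126a-5p differed by -0.52 and -0.74 (unadjusted p = 0.0202 and 0.0108). Neuronal miRNAs were mixed, with 3 positive and 2 negative and a median of 0.03, and miR-124-3p was the lowest at -0.54 (limma, unadjusted p = 0.0552). Of 4 microglial and leukocyte miRNAs 1 was measured, miR-150-5p, with a difference of -0.13, and of 5 choroid plexus and ependyma miRNAs 3 were, with a median of 0.16. Over all 281 miRNAs the median difference was -0.08, and 38.4% had a positive difference. None of the marker differences passed the adjusted threshold, and their part in the family's values was not tested.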

How the data were processed

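Small RNA libraries were made from 1 µg of Trizol-extracted total RNA with Illumina's TruSeq small RNA kit and purified by Pippin Prep, per the labels' protocols. The submitters' processing notes name the build mm10 and the tools edgeR and limma. No source used here names the aligner or counter. For 20 libraries and 281 miRNAs the authors deposited log2 values, normalised by library. Each value equalled log2((n + 0.5) / (L + 1) × 1000000) for a whole read number n in 100% of cases, within 1e-06 reads, with 1 effective library L per column. Reads, percentages and shares were computed from these n. The authors' deposited comparison table gives log2 fold changes, p-values and adjusted p-values. A further deposited table gives library size and run, per the file headers. The library sizes given above show the depth. Without molecular identifiers, counting is only part of the error. The limma p-values set a difference against the spread between libraries. With 1 library per mouse, mouse and library preparation cannot be told apart in that spread. The fit with treatment only leaves run in it as well.

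Differences are CBD minus vehicle from limma 3.58.1 in R 4.3.3 on the deposited log2 values, with a variance trend, treatment as the only term, two-sided tests, and Benjamini-Hochberg adjustment over 281 miRNAs (76 pairs for arms) at a threshold of 0.05. The run test was an F test with treatment in the model. Correlations used 100000 permutations, adjusted over 21 pairs. The scripts were tested on simulated data. Members, lists and the naming rule (all members, the 3 nearest miRNAs per guide, list members with an unadjusted p under 0.05 or else the first measured) were chosen with earlier results of these data known. A few list members beyond that rule, miR-9-5p, miR-124-3p, miR-143-3p and miR-150-5p among them, and miR-434-3p were named after their values were seen. RefSeq sequences of GRCm38.p6 matched 7 of 7 members and 247 of 281 rows. Alternatives were other scalings, weights, pseudocounts, filters, exact tests, and leaving out libraries or runs.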

Additional observations from a re-analysis of the deposited data

Results flagged for a closer look

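Within each group of 10 mice, the highest and lowest library were set against the gap to its neighbour, and 4 of 28 groups held a library far from the others. Chance alone gives about 1 in 20 groups where the groups are separate. Here the arm and guide differences reuse the members' levels, so the count cannot be set against that rate. For miR-181c-5p it was CBD replicate 8, at 6.996 against 8.09 for the next CBD mouse. The same library was lowest for miR-181c-5p minus miR-181c-3p, at -3.68 against -2.08, and for miR-181b-5p minus miR-181d-5p, at 1.11 against 1.77. For miR-181b-5p it was vehicle replicate 7, at 14.56 against 13.06 for the next vehicle mouse.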

How the results depend on the processing

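No paired analysis was possible because replicate numbers were given in accession order within each group, and the labels' own mouse numbers are shared by no 2 mice. Array weights gave the 1 called member (miR-181a-1-3p) and 24 called miRNAs for treatment, against 0 and 0 in limma without weights, and turned miR-181a-5p to 0.20 (adjusted p = 0.520) and miR-181c-5p to 0.25 (adjusted p = 0.522). With the run term added to these weights, 0 were called and miR-181a-5p was -0.16. For miR-181c-5p the leave-one-out range was -0.23 to 0.0040, with 0.0040 reached without CBD replicate 8, and without the 3 libraries of low scaling factor, an alternative chosen after seeing the data, it was 0.015. Signs of the 7 members were kept under median centring, rescaling to 1 total, quantile normalisation and library size in place of the effective library. Median centring gave 5 members called between runs (148 of 281 miRNAs), against 3 (135 of 281), and leaving out 1 library gave 1 to 6 (98 to 159 of 281). Of 281 differences with an unadjusted p under 0.05, 7 were positive and 15 negative, and with median centring 13 and 4. Correlations with an adjusted p under 0.05 numbered 12 of 21, 12 with median centring and 11 with run means removed. Depth limits miR-181c-5p most, with as few as 53 reads in a library. The cause of these changes was not tested.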
